A study of Rattus norvegicus with 24 samples.

Results

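The 12 arrays of control rats hold 6 samples of renal medulla and 6 of renal cortex, among 24 arrays in all, and medulla was compared with cortex within each of the 6 animals. The members were taken by their titles, which name the tissue, the control diet and a 2-digit animal number that both arrays of a rat share. The animals were male Wistar rats, an outbred strain, kept for 6 months on a standard rodent diet with tap water, and their age is not given in the sources used here. They were the controls of a study of lithium nephropathy, in which 6 further rats received lithium in the food over the same 6 months, at 40 mmol per kg of dry food for the first 7 days and 60 afterwards, with a salt block. Pieces of both tissues were taken from frozen kidneys once these had partly thawed, and the sources used here do not say at which depth of the medulla. The RNA is therefore that of mixed tissue. A lower level in such bulk samples may be fewer cells of a type or less RNA in each cell, and these cannot be told apart.

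The cortex of the kidney holds the glomeruli, the proximal convoluted tubules, the distal convoluted tubules and the connecting tubules, and reabsorbs the bulk of the filtered salt, glucose, amino acids and phosphate. The medulla holds the loops of Henle, the vasa recta and the medullary collecting ducts, and its interstitium becomes increasingly salty and rich in urea towards the papilla. Straight proximal tubules and thick ascending limbs lie in the outer medulla, whereas the inner medulla holds thin limbs and collecting ducts, with little oxygen and cells that store organic osmolytes. A comparison of the tissues therefore shows which transcripts mark each zone in rats without lithium, against which the portions taken can be checked.

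The values are log2 signal intensities of 28894 transcript clusters, each a set of probes for 1 transcribed locus. Array medians lay between 5.76 and 5.82 in control cortex and between 6.12 and 6.16 in control medulla, a shift of 0.36 log2 that was not the same at all intensities. It was 0.14 at the lower quartile, 0.54 at the upper quartile and 0.19 at the 99th percentile. The sources used here do not state whether the tissues were normalized together, so tissue and normalization cannot be told apart for the overall level. Each array was centred on its median, and a level below is the log2 signal relative to that median, while a difference is medulla minus cortex in log2 of these levels.

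Of the clusters, 15401 reached a deposited log2 of 6 on 4 or more arrays of a tissue and were tested. Of these, 12401 passed in both tissues, 480 in cortex alone and 2520 in medulla alone. A cluster was called at an adjusted p under 0.05 in the paired fit, and a large call also had a difference of at least 1 log2, which is 2-fold. Medulla was higher in 6391 clusters (41.5% of those tested) and lower in 3312 (21.5%), and the large calls were 1140 higher (7.4%) and 840 lower (5.45%). The median difference over all tested clusters was 0.16. With quantile normalization of the 12 arrays, which leaves each value only its rank within its array, 5064 clusters were higher and 4220 lower, and the large calls were 957 and 956. Of the large calls, 933 higher and 823 lower were shared with that scaling, and none was large in the opposite direction. On the deposited values without centring, 10734 were higher and 1495 lower, with 2681 and 552 large calls. The balance of higher against lower calls therefore depended on the scaling and on the filter, without which 7347 were higher and 10526 lower, and calls of small differences are given below with that limit.

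Among genes with a name, each represented by its brightest cluster, 9177 were tested. Large calls made up 797 higher (8.68%) and 606 lower (6.6%) of these, and all calls 4097 higher (44.6%) and 1820 lower (19.8%). The median difference of the named genes was 0.20. The 6 medulla and the 6 cortex levels did not overlap in 2674 genes with higher medulla (29.1%) and in 1116 with lower medulla (12.2%). Counts in the gene lists below are read against these shares. A member that reached the filter in 1 tissue alone was favoured to differ, though not every such member was called. Calls of single such genes are descriptions, and such members give their list's count no support. In medulla alone these were 3 of 5 thin limb genes, 3 of 4 of the urothelium, 4 of 12 of prostaglandins, 4 of 7 each of the juxtaglomerular and the endothelin lists, 3 of 9 of smooth muscle, 6 of 24 transcription factors and 6 of 17 HOX genes. They were also 3 of 14 fibrosis genes, 3 of 15 basement membrane genes, 3 of 16 claudins and occludin and 3 of 22 metzincins. Lists with 2 such members were the sodium pump (of 10), macrophage and straight proximal tubule (of 9 each), osmoadaptation (of 12), fibroblast (of 13) and glycolysis (of 16). In cortex alone they were 4 of 14 distal convoluted and connecting tubule genes, 3 of 12 podocyte genes, 2 of 8 organic ion transport genes, 2 of 18 intercalated cell genes and 2 of 24 transcription factors. Other lists had fewer.

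The medulla arrays differed more than the cortex arrays between animals 15 and 16 and between animals 29 and 30. Between animals 1 and 13 they did not. The files had been corrected for scan date within each tissue, which ties together the values of arrays that shared a date, so the spread between animals is described below within such a group, and an order of animals across groups cannot be taken from these files. The groups recovered from the files placed control animals 1 and 13, 15 and 16, and 29 and 30 together. In medulla, the mean level of thick ascending limb genes was lower in animal 15 than in animal 16, and lower in animal 30 than in animal 29. Not all of the genes followed, and the values are given after the tissue comparison. Counts without animals 15 and 30, an alternative chosen after the data were seen, are given below for the lists they changed most. Where a list was low in the medulla of these animals, its rise without them was fixed by that choice.

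The largest differences towards medulla were those of genes for urea and organic osmolyte handling and of a few less known transcripts. Of these, Nupr1, Slc14a2, Slc14a1, Upk3bl1, Nrip3, Slc4a7 and Slc4a11 entered the test through medulla alone. The filter favoured a difference in them, so their p-values and lack of overlap are descriptions. Nupr1, a small nuclear protein induced by cell stress, had levels from -0.52 to 0.15 (median -0.37) in cortex and from 3.05 to 5.20 (median 4.18) in medulla. Its difference was 4.43 ± 0.23 log2 (SE, n = 6 animals, adjusted p = 2.35e-06), which is 21.6-fold, and no cortex array came near the lowest medulla array. Slc14a2, the urea transporter of the inner medullary collecting duct and thin limb, lay between -0.42 and 0.36 (median 0.06) in cortex and between 2.19 and 5.40 (median 4.44) in medulla. The difference was 4.11 ± 0.35 (adjusted p = 2.79e-05), with a medulla spread more than 3 times that of cortex (SD 1.14 against 0.36). Slc14a1, the urea transporter of the descending vasa recta and red cells, was far more even, with levels of -0.68 to -0.31 in cortex and 3.04 to 3.45 in medulla, and its difference was 3.75 ± 0.08 (adjusted p = 4.25e-08).

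Both osmolyte genes at the top of the ranking kept apart in all 12 arrays. Slc5a3, which carries myo-inositol into cells, had levels of -0.51 to 0.93 (median 0.47) in cortex and of 3.65 to 4.75 (median 4.25) in medulla, a difference of 3.84 ± 0.16 (adjusted p = 7.73e-07). Akr1b1, the aldose reductase that makes sorbitol from glucose, went from levels of 1.64 to 2.32 in cortex to 4.78 to 6.65 in medulla, and its difference was 3.79 ± 0.32 (adjusted p = 2.63e-05). A second cluster of that gene gave a difference of 3.77. The other genes among the 10 largest were Upk3bl1, Nrip3, Plet1 and the bicarbonate cotransporter family members Slc4a7 and Slc4a11. Their differences ran from 3.62 for Slc4a11 to 4.20 for Upk3bl1, each without overlap of the tissues. Within that set, Nrip3 spread most in medulla, with levels from 2.08 to 5.27.

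The largest differences towards cortex came from distal convoluted and connecting tubule genes and from proximal tubule genes. Of these, Calb1, Spink1l, Akr1c1, Ugt2b35, Spp2 and Nox4 entered the test through cortex alone, so their p-values and lack of overlap are descriptions too. Calb1, the calcium buffer calbindin of the connecting tubule, had levels of 2.61 to 4.27 (median 3.80) in cortex and of -1.33 to -0.78 (median -0.87) in medulla. It fell by 4.68 ± 0.15 log2 (adjusted p = 2.01e-07), a size of 25.6-fold, and the tissues did not overlap. Slc12a3, the thiazide-sensitive sodium chloride cotransporter, ran from 5.11 to 5.70 (median 5.47) in cortex and from 1.07 to 1.80 (median 1.52) in medulla. With a difference of -3.98 ± 0.08 (adjusted p = 4.25e-08), it had one of the smallest standard errors among the genes named here. Slc5a12, a sodium-coupled lactate carrier of the proximal tubule, lay at 4.54 to 5.49 in cortex and 0.49 to 1.51 in medulla, a difference of -4.09 ± 0.10.

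Further genes of the lower 10 were enzymes and secreted proteins. Akr1c1 and Ugt2b35, an aldo-keto reductase and a glucuronosyltransferase, differed by -4.57 and -4.29. Acmsd, an enzyme of tryptophan breakdown, differed by -4.01, and the NADPH oxidase Nox4 by -3.91. Spink1l and Spp2 differed by -4.57 and -4.37. Klk1b3 differed by -3.91 and belongs to the tissue kallikreins, whose sequences are so alike that probes may not tell them, or Klk1, apart. All were without overlap between the tissues.

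**Figure D1:**
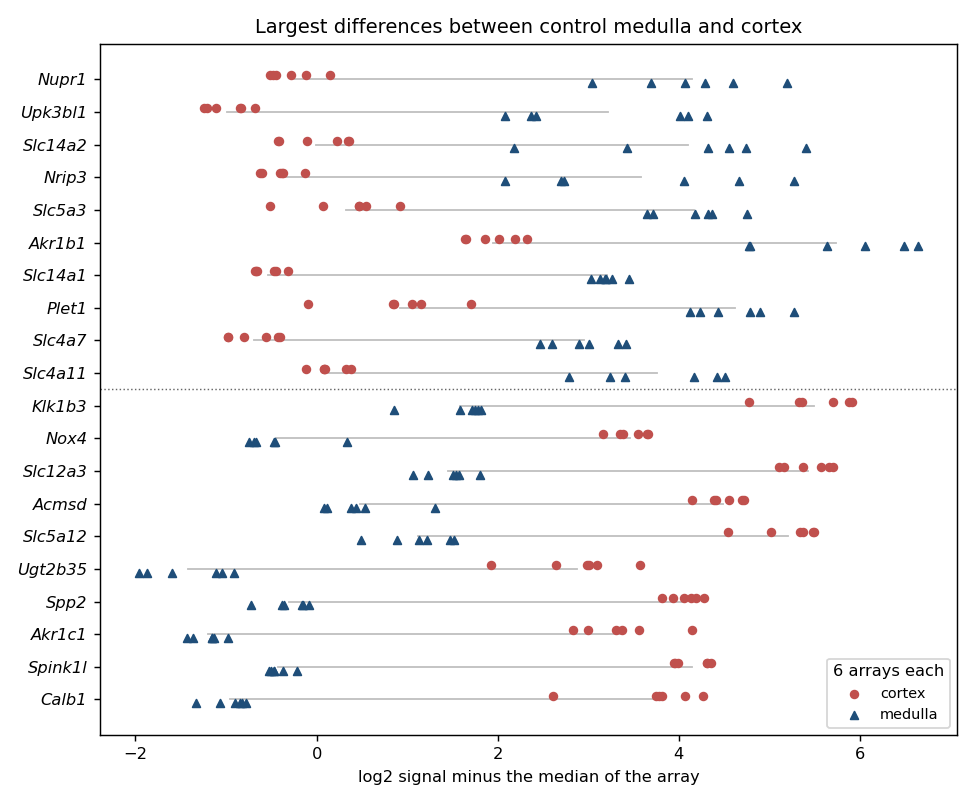
Levels of the 10 named genes with the largest difference towards medulla (above the dotted line) and the 10 towards cortex (below it), as log2 signal minus the array median, with 6 cortex arrays (circles) and 6 medulla arrays (triangles) and a grey line between the tissue means. The tissues do not overlap in any of the 20 genes, which the rule required, and medulla levels of Slc14a2, Nrip3 and Nupr1 spread over more than 2 log2 units, against less than 1 in cortex.

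Genes of the early proximal tubule were lower in medulla as a group. Of 21 tested, 20 were lower by at least 1 log2 (6.6% of all named genes were) and none was higher, and the median difference was -3.11. The same 20 were called with quantile normalization and on the deposited values without centring. The exception was Slc9a3, a sodium proton exchanger that thick ascending limbs also carry, with a difference of -0.55 that did not pass. Slc34a1, the main phosphate carrier of the brush border, had levels of 6.21 to 6.44 (median 6.25) in cortex and a median of 3.03 in medulla, where the lowest was 2.63. Its difference was -3.15 ± 0.18 (adjusted p = 3.59e-06), without overlap of the tissues. Slc22a8 and Slc22a6, organic anion uptake carriers, differed by -3.86 ± 0.11 and -3.62 ± 0.12. Slc13a3 and Slc13a1, which take up dicarboxylates and sulfate, differed by -3.82 ± 0.14 and -3.75 ± 0.17. The glucose carriers Slc5a2 and Slc2a2 differed by -3.74 and -3.08. Hnf4a, a transcription factor of proximal tubule cells, had levels of 4.16 to 4.49 in cortex and of 0.66 to 2.66 in medulla, and its difference was -2.78 ± 0.25 (adjusted p = 3.86e-05). The endocytic receptors Lrp2 and Cubn differed by -2.55 and -2.91, less than most of the transporters.

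Markers of the straight proximal tubule, which reaches into the outer medulla, were split. Of 9 tested, 5 were lower by at least 1 log2, 1 was called higher and 3 were not called, with a median of -1.08. Without animals 15 and 30, 3 were lower by at least 1 log2 and the median was -0.64. Slc5a8, a monocarboxylate carrier, differed by -2.81 ± 0.20 without overlap. Slc5a1 and Slc3a1, a glucose carrier and the heavy subunit of the cystine carrier, differed by -1.77 ± 0.30 and -1.74 ± 0.44, and their tissues overlapped. Slc3a1 reached a level of 4.88 in 1 medulla array, within the cortex range of 4.31 to 4.91, and fell to 0.95 in another. Slc7a13, an amino acid carrier of the last proximal segment, gave a difference of 0.46 ± 0.94 that did not pass (adjusted p = 0.688), because its levels spread from -0.04 to 4.84 in cortex and from -0.39 to 5.42 in medulla.

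Transport and metabolic lists that draw on the proximal tubule moved the same way, and they share members with its markers. In amino acid transport, 11 of 14 genes were lower by at least 1 log2 and none was called higher, with Slc6a19 at -3.49 ± 0.10, Slc7a9 at -3.37 ± 0.17 and Slc7a8 at -2.85 ± 0.13. On the deposited values without centring, 7 of these remained that far below cortex. Organic ion transport had 6 of 8 genes lower by at least 1 log2, among them the efflux carrier Slc47a1, which differed by -2.48 ± 0.22. Gluconeogenesis and ammonia production had 6 of 11, led by G6pc1, Pck1 and Fbp1, the enzymes particular to making glucose, at -3.48 ± 0.14, -3.25 ± 0.13 and -2.90 ± 0.18. In the list of phosphate, vitamin D and calcium hormones, 6 of 12 were lower by at least 1 log2 and Stc1, the hormone stanniocalcin, was higher by 1.43. Cyp24a1, which degrades active vitamin D, differed by -3.89 ± 0.19, the receptors Pth1r and Vdr by -2.88 and -2.37, and Kl, the co-receptor for a phosphate hormone, by -1.84. Without animals 15 and 30 the list still had 6 lower by at least 1 log2, and its median went from -1.22 to -0.51.

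Oxidative metabolism was lower in medulla by smaller amounts, and these depended more on the scaling. Of 17 genes of fatty acid oxidation and peroxisomes, 12 were called lower and 6 by at least 1 log2. Those with the largest differences were the peroxisomal enzymes Dao, Hao2 and Ehhadh, at -2.95 ± 0.29, -2.80 ± 0.29 and -2.15 ± 0.23. The carnitine palmitoyltransferases Cpt1a and Cpt2 differed by 0.20, which was not called, and -0.39. Among 18 subunits of oxidative phosphorylation, 11 were called lower, none by 1 log2, and the median was -0.55. Sdhd, a subunit of succinate dehydrogenase, had levels of 3.77 to 3.98 in cortex and 2.41 to 3.62 in medulla, with a difference of -0.87 ± 0.18. With quantile normalization 10 of the 18 were called lower, and on the deposited values without centring 3 lower and 2 higher with a median of -0.20. Without animals 15 and 30, 7 of the 18 and 7 of the 17 genes of fatty acid oxidation were called lower, with medians of -0.25 and -0.27.

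Glycolysis split within the pathway. Of 16 genes, 8 were called higher in medulla (44.6% of all named genes were), 7 of them by at least 1 log2, and 4 were called lower. Pfkfb3, which makes the activator of phosphofructokinase, had levels of -0.12 to 0.53 (median 0.28) in cortex and of 2.28 to 4.29 (median 3.17) in medulla. Its difference was 3.01 ± 0.31 (adjusted p = 8.04e-05). The platelet phosphofructokinase Pfkp and the glucose transporter Slc2a1 differed by 1.74 ± 0.13 and 1.63 ± 0.08, and the lactate exporter Slc16a3, hexokinase Hk2 and pyruvate kinase Pkm by 1.39, 1.31 and 1.24. The 4 called lower were Gapdh, Pgam1, Eno1 and Pgk1, enzymes of the middle of the pathway, at -0.65, -0.65, -0.49 and -0.44. Eno1 was not called under either other scaling (-0.12 and -0.14), nor was Pgk1 without centring. Gapdh is represented by many clusters of near-identical sequence, so its value is uncertain.

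**Figure D2:**
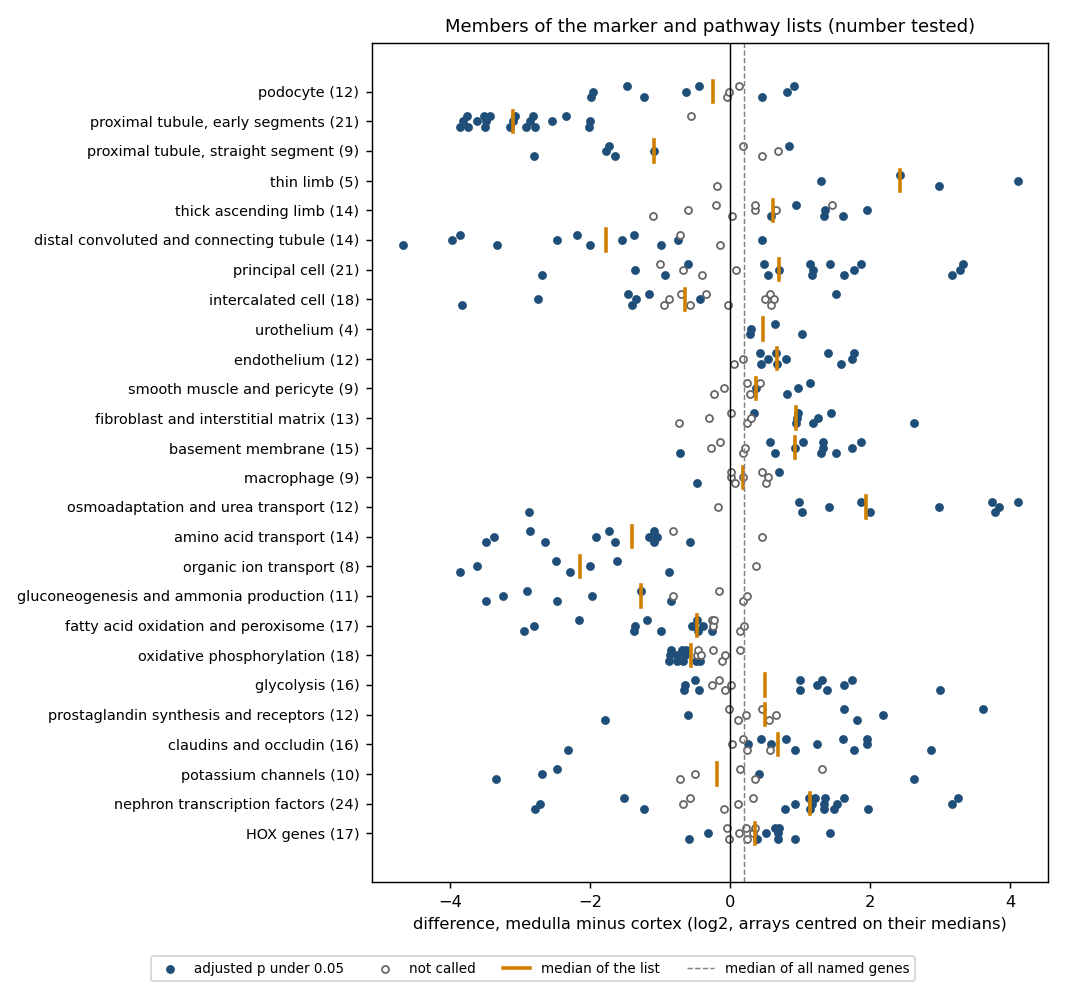
Difference of each tested gene, medulla minus cortex in log2 of centred levels, for 26 marker and pathway lists with the number of genes tested in brackets. Filled points passed an adjusted p of 0.05, open points did not, orange bars are list medians and the dashed line is the median of all named genes at 0.20. Early proximal tubule genes lie far to the left, thin limb and osmoadaptation genes to the right, and principal and intercalated cell genes to both sides.

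Distal convoluted and connecting tubule genes were lower in medulla, with 11 of 14 called lower, 9 of them by at least 1 log2, and a median of -1.77. Beside Calb1 and Slc12a3, the kallikrein Klk1 had levels of 4.41 to 5.52 in cortex and of 0.97 to 1.70 in medulla, a difference of -3.86 ± 0.16 (adjusted p = 7.73e-07). Trpv5, the calcium channel of the luminal membrane, and the calcium exporter Atp2b4 differed by -2.19 and -1.54. Wnk4, a kinase that regulates the sodium chloride cotransporter, was called higher at 0.46, but not with quantile normalization (0.27). Among potassium channel genes, Kcnj16 was lower by 2.47 log2 and Kcnj10 gave -0.72 and was not called. Kcnj15 differed by -3.34 ± 0.13, whereas the channel Kcnk1 went the other way by 2.62 ± 0.09. The potassium channel list had 2 of 10 called higher and 3 lower, and without animals 15 and 30 it had 5 higher and 3 lower, with the median going from -0.18 to 0.19.

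Of 12 podocyte genes tested, 4 were lower by at least 1 log2, and 3 were called higher by less. Nphs1, the slit diaphragm protein nephrin, had levels of 1.27 to 2.09 in cortex and of -0.42 to 0.01 in medulla, a difference of -1.96 ± 0.08 (adjusted p = 6.81e-07). The receptor phosphatase Ptpro and the cytoskeletal protein Clic5 differed by -1.99 ± 0.19 and -1.48 ± 0.16, and the transcription factor Wt1 by -1.23. Cd2ap and Plce1, which are also used outside podocytes, were called higher in medulla at 0.92 and 0.81. The cortex array of animal 1 had a mean level of the 12 genes of 1.33, below the 1.98 of animal 13 from its scan group.

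Thin limb and osmoadaptation genes were higher in medulla. Of 5 thin limb genes, of which 3 (Slc14a2 and Fst among them) entered the test through medulla alone, 4 were higher by at least 1 log2, while Aqp1, a water channel that proximal tubules also carry, gave -0.19 ± 0.19 and was not called. Cryab, a small heat shock protein, had levels of 1.35 to 2.03 in cortex and of 4.28 to 5.06 in medulla, a difference of 2.98 ± 0.18 (adjusted p = 4.72e-06). Fst, the activin binding protein follistatin, differed by 2.43 ± 0.39 and ranged from -0.07 to 2.70 in medulla. Among 12 genes of osmoadaptation and urea transport, which share Cryab and Slc14a2 with that list, 9 were higher by at least 1 log2 (8.68% of all named genes were), 1 was lower and the median was 1.94. Nfat5, the transcription factor that responds to hypertonicity, differed by 1.87, and the heat shock protein Hspb1 by 2.00. Members of the list did not all move together. The taurine transporter Slc6a6 gave -0.18 and was not called, and Sord, which breaks sorbitol down to fructose, was lower by 2.87 log2 while Akr1b1, which makes sorbitol, was higher.

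The promoters of the genes that moved together were searched for the letters that known regulators of each tissue bind, in RefSeq windows of 300 bases on GRCr8, from 250 bases before to 50 after the annotated start. The motifs were searched on both strands, and overlaps between them were not removed: GTTAAT, a half-site of the proximal tubule factor HNF1, CAAAGTCCA, a site of HNF4, and the tonicity element TonE that NFAT5 binds, as TGGAAANNCNC, TGGAAANNCNT, TGGAAANNTNC or TGGAAANNTNT. A window with a unique symbol was found for 469 of the 606 genes lower in medulla by at least 1 log2, for 571 of the 797 higher and for 7309 of the 9177 tested. HNF4 letters were in 1.49% of windows of the lower genes (7 windows), 0.35% of the higher (2) and 0.328% of all tested (24), and in 0.38% of all 24206 windows. GTTAAT was in 9.59%, 4.2%, 4.41% and 7.45% in the same order. TonE letters were in 4.26%, 6.3%, 3.53% and 5.93%. These are descriptions without a test, and a match is not a binding site.

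Pdzk1, a scaffold of brush border transporters that differed by -3.50, and Slc3a1 held the HNF4 letters, and they were chosen after the matches were seen and are shown for that reason, with the match in capitals. In Pdzk1 the match ended 1 base before the annotated start, and in Slc3a1 it lay on the opposite strand 81 to 89 bases before it. Both sequences run 5′ to 3′ along the gene, from chr2:187064745-187065044 (plus strand) and chr6:15394700-15394999 (minus strand).
Pdzk1: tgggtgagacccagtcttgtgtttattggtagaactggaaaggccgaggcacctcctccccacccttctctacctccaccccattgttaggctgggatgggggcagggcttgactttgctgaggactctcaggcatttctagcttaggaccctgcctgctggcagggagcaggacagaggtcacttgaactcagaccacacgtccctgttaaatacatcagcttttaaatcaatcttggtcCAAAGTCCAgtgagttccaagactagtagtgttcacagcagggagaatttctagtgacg
Slc3a1: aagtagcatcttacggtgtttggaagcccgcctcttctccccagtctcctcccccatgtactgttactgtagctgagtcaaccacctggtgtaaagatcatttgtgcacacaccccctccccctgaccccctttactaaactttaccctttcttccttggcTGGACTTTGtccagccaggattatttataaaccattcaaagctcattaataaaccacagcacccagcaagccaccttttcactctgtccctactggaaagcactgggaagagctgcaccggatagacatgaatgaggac

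Nupr1, with the largest difference towards medulla, held TonE letters at 2 places, and Hspb1, which differed by 2.00, at 1. Of 8 osmoadaptation genes with a window, 3 held them (Hspb1, Hsph1 and Slc6a6), and the last of these did not differ between the tissues at the threshold. TonE letters were also in 2 of 19 windows of early proximal tubule genes. These were Cubn and Slc17a3, which differed by -2.91 and -2.86. The windows are chr1:190645852-190646151 and chr12:26432252-26432551, both on the minus strand, with the matches in capitals. In Nupr1 the matches lay 169 to 179 bases before the start on the opposite strand and 156 to 166 bases before it on the same strand, and in Hspb1 the match lay 120 to 130 bases before it on the opposite strand.
Nupr1: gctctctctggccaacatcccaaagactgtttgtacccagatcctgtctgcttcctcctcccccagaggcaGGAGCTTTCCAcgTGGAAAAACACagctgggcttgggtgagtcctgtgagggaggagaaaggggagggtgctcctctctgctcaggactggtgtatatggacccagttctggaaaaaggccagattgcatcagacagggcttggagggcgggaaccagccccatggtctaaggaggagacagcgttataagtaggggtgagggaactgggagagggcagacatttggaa
Hspb1: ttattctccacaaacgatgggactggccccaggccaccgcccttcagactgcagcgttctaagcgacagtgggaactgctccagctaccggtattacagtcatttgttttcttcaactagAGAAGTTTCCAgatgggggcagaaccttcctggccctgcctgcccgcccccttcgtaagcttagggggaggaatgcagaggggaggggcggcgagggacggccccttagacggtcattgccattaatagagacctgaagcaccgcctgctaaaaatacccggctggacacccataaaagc

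Principal cells of the collecting duct run through both tissues, and their genes split. Of 21 tested, 13 were called higher in medulla (44.6% of all named genes were), 10 of them by at least 1 log2, and 4 were called lower. The basolateral water channel Aqp4 had levels of 0.10 to 1.28 (median 0.53) in cortex and of 2.86 to 4.78 (median 3.92) in medulla, a difference of 3.33 ± 0.27 (adjusted p = 2.25e-05). Fxyd4, a regulator of the sodium pump found in collecting ducts, and the transcription factor Elf5 differed by 3.28 ± 0.28 and 3.17 ± 0.34 without overlap. Aqp2, the vasopressin-regulated water channel, had cortex levels of 3.81 to 4.78 and medulla levels of 5.38 to 6.47, and Aqp3 had 2.99 to 3.40 and 4.05 to 5.06. Their differences were 1.77 ± 0.20 and 1.43 ± 0.17, and the vasopressin receptor Avpr2 differed by 1.88. The epithelial sodium channel went the other way. Its subunits Scnn1a and Scnn1b were called lower in medulla at -1.36 and -0.93, Scnn1g gave -0.40 and was not called, and Scnn1b was not called without centring (-0.57). Kcne1, a regulatory subunit of potassium channels, was the furthest below cortex, with levels of 0.73 to 1.00 in cortex and of -2.37 to -1.33 in medulla and a difference of -2.69 ± 0.12 (adjusted p = 8.60e-07).

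Intercalated cells move acid and base. Of 18 of their genes, 7 were called lower in medulla, 6 by at least 1 log2, 1 was higher and 10 were not called. Slc26a4, the chloride bicarbonate exchanger pendrin of the base-secreting type B cell, had levels of 2.70 to 3.29 in cortex and of -1.57 to -0.39 in medulla, a difference of -3.83 ± 0.20 (adjusted p = 2.56e-06). Insrr, a receptor that senses alkaline fluid, differed by -2.74 ± 0.18, and Slc4a9, another bicarbonate transporter of type B cells, by -1.40. Slc26a7, a basolateral exchanger of acid-secreting cells in the outer medulla, was higher by 1.52 ± 0.25 (adjusted p = 0.000895), and 1 medulla array fell within the cortex range. The anion exchanger Slc4a1 of type A cells and the proton pump subunit Atp6v1b1 gave 0.57 ± 0.43 and -0.94 ± 0.41 and were not called. Without animals 15 and 30, 4 of the 18 were higher and 2 lower by at least 1 log2, and the list median went from -0.64 to near 0.

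Thick ascending limb genes were mostly not called, with 6 of 14 higher, 4 of them by at least 1 log2, none lower and 8 not called. The share called higher was near the 44.6% of all named genes. Cldn19, a tight junction protein for magnesium and calcium, had levels of 0.98 to 1.67 in cortex and of 1.91 to 3.96 in medulla, a difference of 1.95 ± 0.26 (adjusted p = 0.000293). Bsnd, the subunit barttin of basolateral chloride channels, and the transcription factor Irx2 differed by 1.61 ± 0.28 and 1.35 ± 0.16. Slc12a1, the sodium potassium chloride cotransporter of this segment, gave 1.46 ± 0.66 and did not pass (adjusted p = 0.0827), and Umod, which encodes uromodulin, gave -0.20 ± 0.51 (adjusted p = 0.754). Without animals 15 and 30, 11 of the 14 were called higher, 9 by at least 1 log2, and the median difference was 1.26 in place of 0.62. Those animals were picked after their low medulla levels of these genes were seen. The rise was therefore fixed by the choice and gives the list no support.

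Tight junction proteins and transcription factors marked the segments. Of 16 claudins and occludin, 11 were called higher (44.6% of all named genes were), 6 by at least 1 log2. Cldn2, the leaky junction protein of the proximal tubule, was the only one called lower, at -2.31 ± 0.44. Cldn4, found in collecting ducts, had levels of 1.02 to 1.40 in cortex and of 3.24 to 4.75 in medulla, a difference of 2.87 ± 0.19 (adjusted p = 7.14e-06). Cldn15, Cldn11, Cldn7 and Cldn8 were higher by 1.96, 1.77, 1.61 and 1.25. Among 24 transcription factors of the nephron, 13 were higher by at least 1 log2 and 4 lower. Sim2 had levels of -0.14 to 0.03 in cortex and of 2.80 to 3.45 in medulla, a difference of 3.25 ± 0.10 (adjusted p = 2.01e-07). Pax8 and Pax2, which act in kidney development, were higher by 1.53 and 1.34, the epithelial factors Elf3 and Grhl2 by 1.96 and 1.63, and Hnf4g and Lhx1 were lower by 2.72 and 1.52 log2. Of 17 HOX genes, which set position along the body axis, 8 were called higher, near the 44.6% of all named genes, and 2 lower. Hoxb9 alone passed 1 log2, at 1.42 ± 0.10. Several of those calls were small, and Hoxb3 at 0.39 was not called with quantile normalization.

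Prostaglandin genes went in both directions. Of 12 tested, 4 were higher by at least 1 log2 (8.68% of all named genes were), 2 were called lower and 6 were not called. Ptgs1, Ptgs2 and Pla2g4a entered the test through medulla alone, so the count of higher genes gives little support. The cyclooxygenase Ptgs1 had levels of -0.26 to 0.38 in cortex and of 2.39 to 4.97 in medulla, a difference of 3.61 ± 0.32 (adjusted p = 3.69e-05). The inducible cyclooxygenase Ptgs2 and the phospholipase Pla2g4a, which releases arachidonic acid, differed by 1.81 ± 0.16 and 2.18 ± 0.18. The receptors Ptger1 and Ptger4 went apart at 1.63 and -0.60, and the prostaglandin D synthase Ptgds was lower by 1.79 log2. In the list of endothelin, nitric oxide and kinin genes, Edn3 and the neuronal nitric oxide synthase Nos1 were higher by 1.43 ± 0.20 and 1.18 ± 0.30 and Klk1 was lower, among 7 tested. Edn3 and Nos1 had also entered the test through medulla alone. Of 8 carbonic anhydrases, the membrane-bound Car14, Car15 and Car12 were lower by 3.21, 1.89 and 1.37 log2 and Car8 was higher by 1.20. Without animals 15 and 30 none of the 8 was called higher and 2 were lower by at least 1 log2. In the list of juxtaglomerular and angiotensin genes, Enpep, which degrades angiotensin, was lower by 2.30 log2, and 3 of 7 were called higher, near the 44.6% of all named genes.

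Of 12 endothelial genes, 10 were called higher, 4 by at least 1 log2, and none lower, where all named genes gave 44.6% and 8.68% higher. The junction protein Esam had levels of 1.24 to 1.72 in cortex and of 2.93 to 3.52 in medulla, a difference of 1.78 ± 0.11 (adjusted p = 6.96e-06), and Plvap, which forms diaphragms in fenestrated endothelium, differed by 1.75 ± 0.19. Among 9 genes of smooth muscle and pericytes, 4 were called higher, near the 44.6% of all named genes, and Rgs5 was highest at 1.15 ± 0.24, while the muscle genes Myh11, Des and Tagln were not called. Of 13 fibroblast and matrix genes, 8 were called higher (44.6% of all named genes were) and none lower. Their median difference was 0.94, against 0.33 over all 16 of the list on the array. Fn1, which encodes fibronectin, had levels of 0.92 to 1.75 in cortex and of 3.57 to 4.69 in medulla, a difference of 2.63 ± 0.13 (adjusted p = 1.57e-06). The fibrillar collagens Col1a1, Col1a2 and Col3a1 gave -0.31, 0.31 and 0.25 and were not called, and the small proteoglycans Dcn and Bgn were higher by 1.44 and 1.18. Basement membrane genes had 7 of 15 higher by at least 1 log2 (8.68% of all named genes were), with the epithelial laminin chain Lamb3 at 1.74 ± 0.23, and Lama1 called lower at -0.72.

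The metzincin proteases and their inhibitors, which the study used as a fibrosis signature, were spread on both sides, with 8 of 22 called higher and 5 lower. Over all named genes the shares were 44.6% and 19.8%. Timp1, an inhibitor of matrix metalloproteinases, was higher by 1.67 ± 0.24, and the brush border protease Mep1a and Adamts1 were lower by 2.57 ± 0.44 and 1.30 ± 0.14 log2. Of 14 further fibrosis genes that the study picked on these animals, 9 were called higher in medulla and 1 lower, and Plat and Cd44 differed by 1.45 ± 0.28 and 1.28 ± 0.11. Control rats thus differed between tissues in these genes, with a median of 0.42 for that list against 0.20 over all named genes. With quantile normalization 6 of the 14 were called higher. In the sodium pump list, 5 of 10 were called higher, near the 44.6% of all named genes, with Fxyd5 and Atp1b2 at 1.35 and 1.22 after Fxyd4.

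Other cell types that a portion might hold were less clearly apart. Of 9 macrophage genes, 1 was called higher (Cd14 at 0.70 ± 0.14) and 1 lower (C1qa at -0.47 ± 0.16), and without animals 15 and 30 it was 5 higher and none lower. The urothelium of the pelvis had 7 of 11 genes named on the array and 4 tested. All 4 were called higher, but 3 of them had entered the test through medulla alone, and over the 7 on the array the median difference was 0.29. Upk1a differed by 1.03 ± 0.22 and Upk2 by 0.31 ± 0.10. Their mean level ran from -0.51 to -0.24 in cortex and from -0.29 to 0.74 in medulla, and Upk2 lay below the array median in all 12 arrays. Among T and B cell, adipocyte and red cell genes, 2 of each were tested, and Cd79b at 0.59 ± 0.11 was the single call. The part of these cells in the differences above was not tested.

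Within a scan group, the medulla arrays of different rats stood apart by more than the cortex arrays in 2 of 3 pairs. Between animals 29 and 30, 1669 of the 15401 clusters (10.8%) differed by at least 1 log2 in medulla and 109 (0.708%) in cortex. Between animals 15 and 16 it was 776 (5.04%) in medulla and 43 (0.279%) in cortex, and between animals 1 and 13 it was 349 (2.27%) and 355 (2.31%). These are single arrays, so the counts describe them and were not tested.

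The genes below, of thick ascending limb, straight proximal tubule and intercalated cells, were chosen after their values were seen. The medulla levels of Slc12a1 were 5.24 and 5.84 in animals 1 and 13, 2.86 and 6.44 in animals 15 and 16, and 5.62 and 1.18 in animals 29 and 30. Its cortex levels in the same order were 1.60, 4.23, 3.57, 2.99, 3.42 and 2.61. In animals 15 and 30 the medulla level lay below that of their own cortex, and in the other 4 it lay above. Umod had medulla levels of 5.73, 6.26, 4.03, 6.76, 6.13 and 2.50 in that order, and Slc7a13 had 2.24, 3.87, 0.72, 4.78, 5.42 and -0.39, so that animals 15 and 30 lay below animals 16 and 29 in all 3 genes. The proton pump subunit Atp6v1b1 had 2.53, 2.18, 0.78, 2.45, 2.88 and -0.08. Slc7a13 also spread in cortex, with 4.01 in animal 15 against 0.09 in animal 16 and 1.55 in animal 30 against 3.44 in animal 29.

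Over whole lists, the mean medulla level of the 14 thick ascending limb genes was 2.50 in animal 15 against 4.24 in animal 16, and 1.63 in animal 30 against 3.93 in animal 29, while cortex means within these pairs differed by 0.17. The straight proximal tubule list gave 0.61 against 2.52 and 0.09 against 3.18, and the intercalated cell list 1.04 against 2.26 and 0.37 against 2.61, each in medulla and in the same order of animals. Cortex means of the straight proximal tubule list also differed, at 2.77 against 2.09 and 2.12 against 2.62, with animal 15 above animal 16. Those of the intercalated cell list were 2.54 against 2.61 and 2.30 against 2.33. In medulla, oxidative phosphorylation followed at 2.80 against 3.67 and 2.72 against 3.78. Macrophage genes gave 1.06 against 1.60 and 0.59 against 1.88. The pair of hemoglobin clusters, Hbb and Hbb-b1, gave 1.54 against 3.28 and 1.06 against 3.78, and animals 1 and 13 had 1.77 and 3.69. Between animals 1 and 13 the intercalated cell and macrophage means lay within 0.17 and 0.02 of each other while the hemoglobin clusters differed by 1.93. The part of hemoglobin in the lists was not tested.

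Other medullary genes did not all follow. Fst, of the thin limb list, was low in the same animals, at a medulla level of 0.78 in animal 15 against 2.70 in animal 16 and of -0.07 in animal 30 against 2.67 in animal 29. Several genes went the other way, among them Bsnd of the thick ascending limb list. Its medulla levels were 4.41 in animal 15 against 3.40 in animal 16 and 3.98 in animal 30 against 3.17 in animal 29. In medulla, Slc14a2 had a level of 5.40 in animal 30 and 2.19 in animal 29, and Nupr1 had 5.20 and 3.05. Pfkfb3 had 4.29 against 2.28 in the same pair and 3.77 in animal 15 against 2.56 in animal 16. Akr1b1 had 6.49 against 4.78 and 6.06 against 5.64. In contrast, Slc14a1 differed by at most 0.24 log2 within any pair of medulla arrays, and Slc12a3 by at most 0.73. The mean levels of the principal cell and endothelial lists stayed within 0.48 and 0.22 within the pairs. The early proximal tubule mean was 2.16 in animal 29 and 0.95 in animal 30, both far below the cortex range of 4.26 to 4.55.

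**Figure D3:**
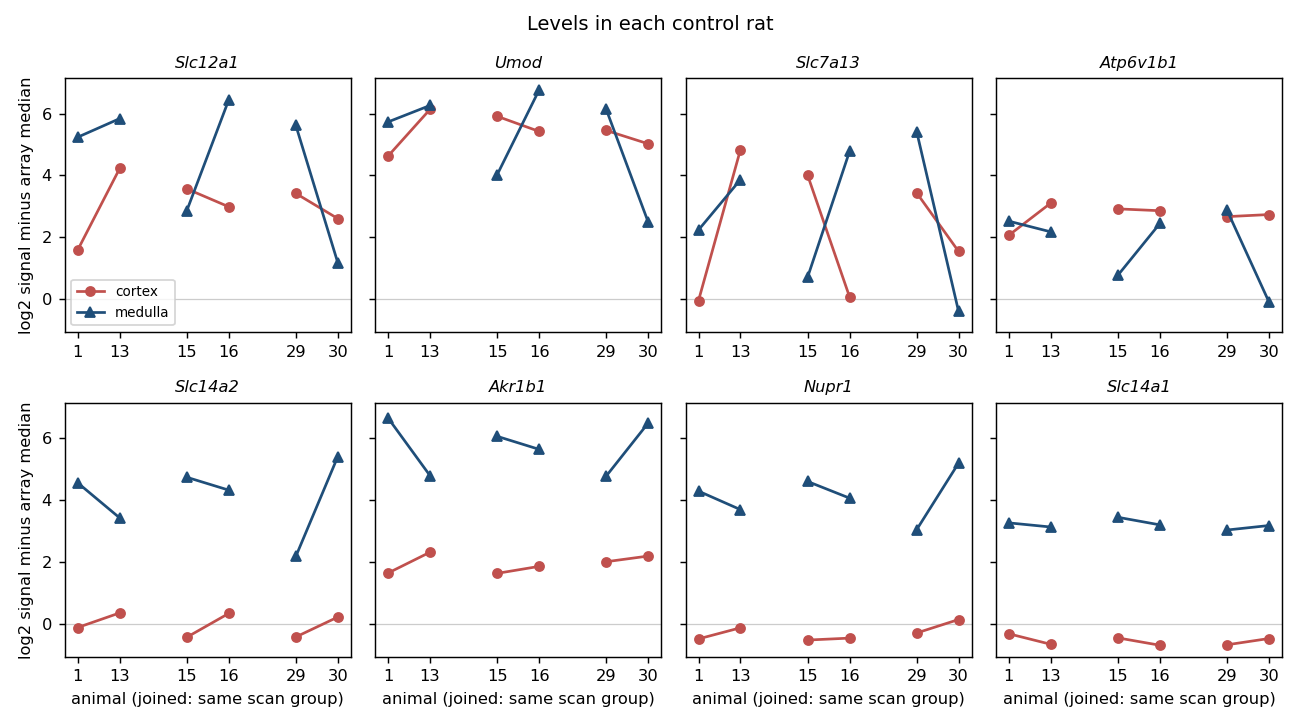
Levels of 8 genes in each control rat, as log2 signal minus the array median, with cortex as circles and medulla as triangles and a line joining animals of the same scan group. In medulla, Slc12a1, Umod, Slc7a13 and Atp6v1b1 are low in animals 15 and 30, Slc14a2, Akr1b1 and Nupr1 are higher in animal 30 than in animal 29, and Slc14a1 stays between 3.04 and 3.45.

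**Figure D4:**
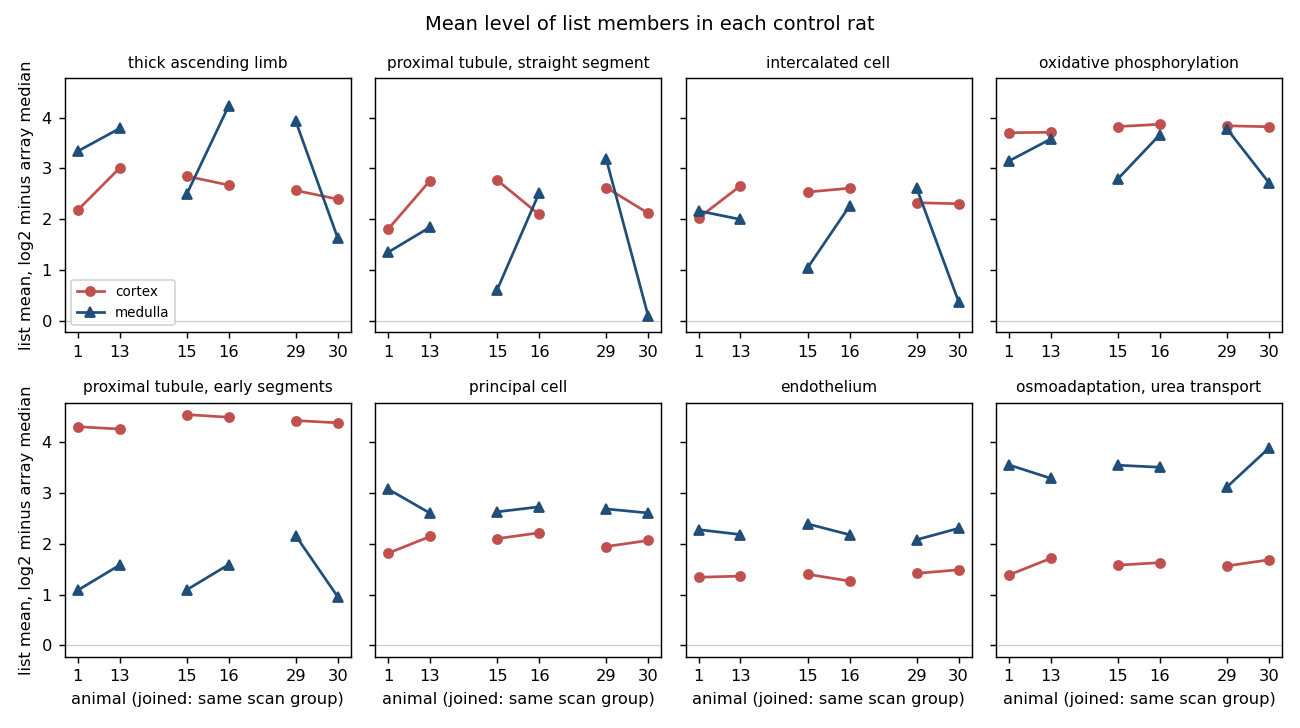
Mean level of the tested members of 8 gene lists in each control rat, as log2 signal minus the array median, drawn as for single genes. The 4 lists of the upper row fall in the medulla of animals 15 and 30 relative to animals 16 and 29, whereas principal cell and endothelial means stay within 0.48 and 0.22 inside each pair.

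Of the 1980 large calls of control rats, 1965 had the same direction, at any size, in 5 lithium-fed rats, the sixth being left out because its cortex array equalled the mean of the other 5. Clusters picked for a large difference were likely to keep its sign. The count is therefore a description, without the share over all tested clusters beside it. A fit of the paired differences, lithium against control, called 40 of 15401 clusters (0.26%), 16 with a more positive and 24 with a more negative difference under lithium, and 2857 had an unadjusted p under 0.05. The count depended on single animals, and no cluster with a more negative difference was called without control animal 16 or without lithium-fed animal 21 or 22, 1 was called without control animal 15 or lithium-fed animal 18, and 62 were called without control animal 29. More positive differences numbered 5 to 19 when 1 animal was left out. Kcne1 had a difference of -2.69 in control and -0.95 in lithium-fed rats, a change of 1.74 ± 0.18 (limma, adjusted p = 0.00114) that was called whichever animal was left out. Klk1 went from -3.86 to -2.37, a change of 1.49 ± 0.25 (adjusted p = 0.0414), and leaving out 1 animal gave adjusted p-values up to 0.112. Trpv5, chosen after its values were seen, went from -2.19 to -0.07, a change of 2.13 ± 0.37 (adjusted p = 0.0463), and leaving out 1 animal gave adjusted p-values up to 0.118. The medulla difference of Slc14a2 was 4.11 in control and 2.65 in lithium-fed rats, and this change did not pass (adjusted p = 0.222).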

How the data were processed

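The files hold log2 signal intensity, 1 value for each of 28894 transcript clusters and array, as the authors deposited it. Per the study's methods, the array signals went through RMA (background correction, then quantile normalization and log2, summarised by median polish) in Partek. The effect of scan date was then removed separately for cortex and for medulla in an analysis of variance that also held treatment, and probe sets were averaged per gene. The genome build in the submitters' notes is rn4, and no position on it was used. Arrays have no read depth, and precision depends on their number.

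A single symbol was given by the platform's annotation for 15103 clusters, several for 317 and none used here for 13466. A further 8 were named from the study's own tables, and 14337 genes had a name. For a gene with several clusters, the one with the highest mean over the 12 control arrays was used. Arrays were centred on their medians. Medulla and cortex were compared by limma 3.58.1 under R 4.3.3, with the animal as a block, and the Benjamini-Hochberg adjustment ran over the 15401 clusters kept, also for the interaction with diet, fitted on paired differences of 11 animals. The fit was tested on simulated data. Tables and figures were made in Python 3.11.15 with numpy 2.4.6, pandas 2.3.3 and matplotlib 3.10.9. Promoter windows come from RefSeq (GRCr8).

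The animal numbers in the titles pair the arrays. Deviations from the tissue means correlated by -0.07 to 0.28 between the arrays of an animal, and 4 of 6 arrays correlated best with that of the same rat. Scan groups were recovered from directions without residual variance once the diet means were removed, and the dates themselves were not used. The 12 control arrays come from 6 rats.

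The comparison, the 36 gene lists (588 entries, of which 497 were named on the array) and the rule for named genes were chosen with earlier results of these data known. The rule takes the 10 largest differences in each direction with an adjusted p under 0.05 and no overlap, and up to 3 members of each list with the largest called difference, 107 genes in all, of which some are not reported here. Other list members and genes said to be chosen afterwards fall outside it. Alternatives covered the scaling, the filter, the block, the scan group, the variance model, the test, the cluster of a gene and leaving out animals.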

Additional observations from a re-analysis of the deposited data

Results flagged for a closer look

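In 286 sets of 6 values (107 genes and 36 list means in each tissue), 16 had a lowest or highest array further from the rest than Dixon's 95% critical value. Chance gives about 1 in 20 for independent values, which these are not. Among cortex arrays, animal 1 was low for Calb1 (2.61 against 3.75 to 4.27 in the other 5) and Uqcrfs1 (2.68 against 2.96 to 3.09) and high for Cldn15 (0.58 against 0.01 to 0.21). The cortex of animal 13 was low for Slc6a19 (3.12 against 3.68 to 3.78) and Slc34a3 (3.39 against 3.82 to 3.95), and that of animal 29 was low for Upk2 (-0.67 against -0.52 to -0.43) and for the mean of HOX genes (0.93 against 1.03 to 1.08).

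In medulla, animal 29 was high for 5 genes, all lower in medulla than in cortex: Acmsd (1.31 against 0.08 to 0.54), Nox4 (0.33 against -0.75 to -0.46), Fbp1 (2.62 against 1.14 to 1.61), Slc7a9 (1.25 against -0.02 to 0.30) and Cyp24a1 (0.91 against 0.14 to 0.35). Animal 30 was high for Klk1 (1.70 against 0.97 to 1.18) and low for Rgs5 (1.52, with 3.22 the highest of the others). Animal 1 was low for Klk1b3 (0.86 against 1.58 to 1.81) and high for the mean of principal cell genes (3.08, with 2.73 the highest of the others). Dixon's test takes the 6 values as independent, but the removal of scan date ties them together and an order of animals across scan groups cannot be taken from these files, so these values are descriptions.

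The tissue difference of Kcne1 and Klk1 differed between diets by the test of the interaction, being 1.74 and 1.49 log2 more positive in the lithium-fed rats.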

How the results depend on the processing

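Among the 107 named genes no difference changed sign under any alternative, and Upk2, C1qa and Atp5f1a were the only ones that lost their call under some. Calls in medulla were 10734 higher and 1495 lower without centring, with 2681 and 552 large calls. Without the filter on low values 7347 were higher and 10526 lower, over 28894 clusters, so that the balance turned. With a filter at 7, 4930 were higher and 2166 lower, over 10428 clusters. A test against a difference of 1 log2 (limma treat) gave 349 higher and 463 lower. Leaving out 1 animal gave 5774 to 6056 higher and 2839 to 3141 lower, and large calls of 1046 to 1264 and 800 to 908. Without the replicate block, that is without the pairing by animal, 6438 were higher and 3328 lower, with 1140 and 838 large, and no named gene changed its call. With scan group in the fit it was 5402 and 2783. The methods' t-test on the same values gave 3006 higher and 1603 lower at its threshold (p under 0.05 and 1.5-fold), 2919 and 1570 after Benjamini-Hochberg at that fold, and 5794 and 3054 after Benjamini-Hochberg alone. For the interaction with diet, quantile normalization gave 20 more positive and 8 more negative, no centring 17 and 10, and including the animal whose cortex array equals its group mean, chosen after the data were seen, 84 and 308. Leaving out 1 animal gave 5 to 19 and 0 to 62. The causes of these changes were not tested. An order of animals across scan groups cannot be taken from these files.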
